A study of Mus musculus with 9 samples.

Results

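The cytosolic ribosomal protein genes were described in mouse embryonic stem cells with and without the histone deacetylase gene Sirt6. Members were the rows of the raw count table whose symbol is Rpl, Rps or Rplp followed by a number and at most one of the letters a, l or x, and Rpsa; 80 of 23366 named rows met this pattern. A filter on low counts passed 79 of the 80, and the exception was Rpl26, listed at 0 counts in every library. Of the 80, 49 encode proteins of the large subunit and 31 proteins of the small subunit. The label holds for these symbols except that Rpl39l, Rpl10l, Rps27l and Rpl3l are paralogs with restricted or inducible expression elsewhere in the mouse.

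Total RNA was sequenced from embryonic stem cells (strain 129 SvJae F1) that had reached passage 21 in DMEM with 10% fetal bovine serum and leukaemia inhibitory factor (LIF), glutamine, antibiotics and beta-mercaptoethanol. The groups compared were Sirt6-KO cells, which lack Sirt6, and WT cells, the wild type, with 3 libraries each. A further 3 WT libraries from cells without glucose belong to the series and were not analysed here. The labels do not say whether the Sirt6-KO cells were 1 clone or whether replicates came from separate cultures, so a p-value here reflects no more than the variation among these libraries, and that variation may be technical.

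The cytosolic ribosome joins a small subunit, which decodes the mRNA, to a large subunit, which forms the peptide bond, and each holds one copy of most of its proteins. Most ribosomal protein mRNAs begin with an unbroken run of pyrimidines, the 5′ terminal oligopyrimidine (TOP) motif, through which mTORC1 and the RNA-binding protein LARP1 control their translation and stability. Ribosomal protein transcripts are among the most abundant in proliferating stem cells.

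Total counts were 29267115, 23220037 and 20107037 in Sirt6-KO libraries 1, 2 and 3, against 27785052, 25044061 and 27120905 in WT libraries 1, 2 and 3. Sirt6 had 12, 6 and 6 counts in the Sirt6-KO libraries, against 348, 341 and 342 in the WT libraries, which is the direction of the labels. The stem cell marker Pou5f1 averaged 1199 ± 152 CPM (counts per 1000000, with library sizes scaled by the trimmed mean of M values, TMM) in Sirt6-KO and 1651 ± 133 CPM in WT (SD, n = 3 each). All 12 stem cell markers listed passed the filter on low counts. At an adjusted p under 0.05 (edgeR), 3 were higher in Sirt6-KO (Tdgf1, Dppa5a and Sox2) and 5 lower (Pou5f1, Nanog, Utf1, Lin28a and Sall4). Over all genes tested, 27.9% were higher and 27.8% lower. The summed level of the 12 markers was 6953, 7678 and 8556 CPM in Sirt6-KO 1, 2 and 3 and 6730 to 7335 CPM in WT. Of 12 fibroblast markers, 7 were tested and 6 were higher in Sirt6-KO, beside the 27.9% of all genes that were higher. The filter on low counts can pass a gene on either group alone. Markers low in WT could therefore enter the test through Sirt6-KO, so the 6 of 7 is not independent of the filter. The summed level of the 12 fibroblast markers was 33.1 to 41.3 CPM in Sirt6-KO and 5.40 to 6.22 CPM in WT. Lum had 0 counts in all 6 libraries. The part of these markers in the results below was not tested. Xist averaged 4.06 CPM in Sirt6-KO and 38.2 CPM in WT, and the Y-linked gene Ddx3y 91.5 CPM in Sirt6-KO and 7.74 CPM in WT, so the groups also differ in sex chromosome transcripts, and this cannot be told apart from the genotype.

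The 80 members together took 7.29%, 10.2% and 12.1% of the counts in Sirt6-KO libraries 1, 2 and 3, against 6.96%, 7.54% and 8.01% in WT libraries 1, 2 and 3. The mean was 9.84 ± 2.41% in Sirt6-KO and 7.5 ± 0.522% in WT (SD, n = 3 each). The groups overlapped, since Sirt6-KO library 1 lay within the range of the WT libraries while Sirt6-KO libraries 2 and 3 lay above it. The 45S ribosomal precursor Rn45s took 4.91%, 3.30% and 3.71% of the counts in the Sirt6-KO libraries and 9.09%, 9.23% and 7.54% in the WT libraries. With Rn45s taken out of the totals, the members' share was 7.67%, 10.5% and 12.6% in Sirt6-KO and 7.66%, 8.31% and 8.66% in WT. In bulk samples like these, fewer cells of a type and less RNA per cell cannot be told apart.

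The ribosomal protein genes shifted together within each library, and the Sirt6-KO libraries lay on both sides of WT. Among the 73 members that averaged 100 CPM or more, the median log2 CPM relative to the WT mean was -0.31 in Sirt6-KO 1, 0.28 in Sirt6-KO 2 and 0.64 in Sirt6-KO 3, against -0.12, 0.02 and 0.10 in WT 1, 2 and 3. On the linear scale the Sirt6-KO medians were 0.808, 1.22 and 1.56 times the WT mean. In Sirt6-KO 1, 64 of the 73 lay below the WT mean and 59 below all 3 WT libraries. In Sirt6-KO 2, 69 lay above the WT mean and 58 above all 3 WT libraries. Sirt6-KO 3 was the highest of the 6 libraries for 73 of 73 members. Lying outside the WT libraries was common among all 14988 genes tested. In Sirt6-KO 1, 6487 of them lay below all 3 WT libraries. Above all 3 WT libraries lay 6445 in Sirt6-KO 2 and 6636 in Sirt6-KO 3.

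**Figure D1:**
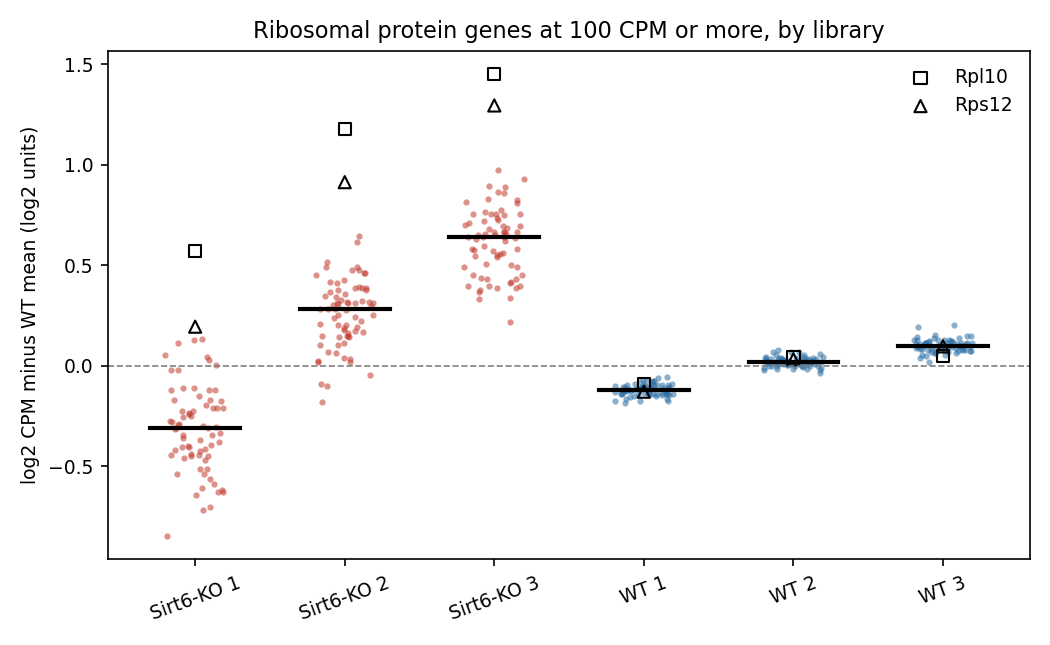
Each point is one of the 73 ribosomal protein genes averaging 100 CPM or more, plotted as log2 CPM minus its mean over the WT libraries, by library, and the bars are medians. The medians lie at -0.31, 0.28 and 0.64 in the Sirt6-KO libraries and at -0.12, 0.02 and 0.10 in the WT libraries, and Rpl10 (squares) and Rps12 (triangles) lie above the median in each Sirt6-KO library.

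The same library order held for nearly every member. Sirt6-KO 1 was lowest, Sirt6-KO 2 in the middle and Sirt6-KO 3 highest for 73 of 73 members, an order held by 22.6% of all 14988 genes tested. In WT, library 1 was lowest and library 3 highest for 71 of 73 members, against 22% of all genes. The median within-group SD of the 73 was 0.488 in Sirt6-KO and 0.111 in WT (log2 units), against 0.169 in Sirt6-KO and 0.0595 in WT for 2020 other genes at 100 CPM or more. Within a library, the SD between members about their median was 0.242, 0.211 and 0.205 in Sirt6-KO 1, 2 and 3 and 0.0228 to 0.0318 in the WT libraries. The values behind these SDs are relative to each gene's WT mean. The Sirt6-KO SDs therefore also hold each gene's difference between the groups, and cannot be compared with the WT SDs as scatter. Members share each library's scaling and are not independent, and no test was run on these orders.

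In the comparison of Sirt6-KO with WT, 7 of the 79 members tested were higher and 0 lower at an adjusted p under 0.05, where 55.7% of all genes tested passed and 27.9% passed as higher (edgeR's quasi-likelihood test, Benjamini-Hochberg adjustment over all genes). The 7 were Rpl39l, Rpl10l, Rpl10, Rps12, Rps16, Rpl15 and Rpsa. At an unadjusted p under 0.05 the counts were 13 higher and 0 lower. Of all 14988 genes, 4593 were higher and 4544 lower at that threshold. With DESeq2 the members' counts were 15 and 0 (54.8% of all genes passed there, 27.8% as higher and 27.0% as lower). With limma-voom they were 7 and 0, where 55.5% of all genes passed. The members' median log2 fold change was 0.25, against 0.01 over all genes. Their standard errors were large beside their changes, with a median of 0.20 (log2) in the 73 higher-expressed members against 0.109 in other genes at that level, while the median size of the log2 fold change was 0.235 against 0.287. In the authors' deposited table, 14 of 79 members listed were higher and 0 lower at an adjusted p under 0.05, where 44.0% of all genes listed passed, and the 14 included all 7.

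The count of members called rested on single libraries. Without Sirt6-KO 1, 66 members were higher with a median log2 fold change of 0.48, where 32.9% of all genes passed as higher. Without Sirt6-KO 3, 4 were higher and 1 lower (Rpl37a) with a median of -0.0068, where 27.9% of all genes passed as higher and 28.9% as lower. Without Sirt6-KO 2, WT 1, WT 2 or WT 3, 4 were higher in each fit, where 23.4% to 24.6% of all genes passed as higher. Rpl39l, Rpl10l, Rpl10 and Rps12 were called in all 6 of these fits, whereas the calls of Rps16, Rpl15 and Rpsa were lost without any one library except Sirt6-KO 1. The 3 Sirt6-KO libraries lay all above the 3 WT libraries for 7 members and all below for 0, where 63.2% of all genes tested did not overlap and 31.2% were higher in Sirt6-KO without overlap. These 7 were Rpl39l, Rpl10l, Rpl10, Rps12, Rpl15, Rpsa and Rplp0.

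Rpl39l, the paralog of Rpl39 that mouse male germ cells use, changed most. It was at 94.1, 151 and 194 CPM in Sirt6-KO 1, 2 and 3, against 12.9, 13.6 and 13.6 CPM in WT 1, 2 and 3. Every Sirt6-KO library was far above every WT library, and the spread within WT was small. The mean was 146 ± 49.9 CPM in Sirt6-KO and 13.3 ± 0.361 CPM in WT (SD, n = 3 each), a log2 fold change of 3.45 ± 0.23 (SE, adjusted p = 7.03e-07, edgeR). Rpl39 itself, which lines the exit tunnel of the large subunit, was at 320, 525 and 674 CPM in Sirt6-KO, against 382, 431 and 454 CPM in WT, so that its groups overlapped (log2 fold change 0.26 ± 0.22, adjusted p = 0.323, edgeR; -0.01 without Sirt6-KO 3 and -0.0049 when scaled to the members).

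Rpl39l's share of the counts of this pair did not follow the library order seen in the other members. It was 22.7%, 22.3% and 22.3% in Sirt6-KO 1, 2 and 3, against 3.28%, 3.05% and 2.90% in WT 1, 2 and 3. The mean share was 22.4 ± 0.253% in Sirt6-KO and 3.08 ± 0.190% in WT (SD, n = 3 each; exact permutation test, two-sided p = 0.1, the smallest that 3 against 3 libraries allow). The pair's coding sequences are shown because they bear on whether reads of one could be counted for the other; capitals mark the bases at which they differ, 5′ to 3′ from the start codon and without the stop codon. In GRCm38 the coding region of Rpl39l spans chr16:10174310-10174462 on the plus strand and that of Rpl39 chrX:37082704-37085127 on the minus strand, introns included.
Rpl39l: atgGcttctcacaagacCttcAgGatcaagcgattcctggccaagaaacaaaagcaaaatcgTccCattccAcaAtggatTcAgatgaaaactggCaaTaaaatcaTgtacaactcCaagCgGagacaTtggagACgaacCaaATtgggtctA
Rpl39: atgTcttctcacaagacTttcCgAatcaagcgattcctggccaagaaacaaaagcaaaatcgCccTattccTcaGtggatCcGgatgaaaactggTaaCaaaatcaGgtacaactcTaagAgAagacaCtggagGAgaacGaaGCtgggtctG
They differed at 23 of 153 positions (85% identity), and the longest identical stretch was 38 bases, so that 0 windows of 50 bases were shared. Over its whole transcript Rpl39l shared 0% of its 50-base windows with any other annotated transcript.

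Rpl10, the X-linked gene of a large subunit protein that joins late near the peptidyl transferase centre, was at 1756, 2673 and 3233 CPM in Sirt6-KO 1, 2 and 3, against 1110, 1217 and 1222 CPM in WT. The lowest Sirt6-KO library was above the highest WT library. Its log2 fold change was 1.11 ± 0.19 (adjusted p = 0.000602, edgeR). Rpl10l, an autosomal copy that replaces Rpl10 in mouse spermatocytes, when the X chromosome is silent, was at 35, 47.4 and 56.5 CPM in Sirt6-KO, against 21.1, 20.4 and 22.7 CPM in WT. It also did not overlap between the groups, at a log2 fold change of 1.11 ± 0.16 (adjusted p = 0.000135, edgeR).

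Rpl10l's share of the pair's counts differed between the groups by less than the spread between libraries. It was 1.95%, 1.74% and 1.72% in Sirt6-KO and 1.86%, 1.65% and 1.82% in WT, with means of 1.80 ± 0.131% in Sirt6-KO and 1.78 ± 0.115% in WT (SD, n = 3 each; exact permutation test, two-sided p = 0.9). The first coding bases of this pair are given to show how often a short read would meet a difference, again in capitals. The coding regions span chr12:66283716-66284357 on the minus strand for Rpl10l and chrX:74271002-74273064 on the plus strand, introns included, for Rpl10 (GRCm38).
Rpl10l: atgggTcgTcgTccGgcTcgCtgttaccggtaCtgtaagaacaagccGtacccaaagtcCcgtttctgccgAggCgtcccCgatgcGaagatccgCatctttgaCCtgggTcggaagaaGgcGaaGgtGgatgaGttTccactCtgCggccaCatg
Rpl10: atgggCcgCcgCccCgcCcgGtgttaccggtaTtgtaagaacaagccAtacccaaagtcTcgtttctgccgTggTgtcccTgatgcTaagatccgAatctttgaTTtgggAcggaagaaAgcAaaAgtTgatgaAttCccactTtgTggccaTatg
Of 642 coding positions 98 differed (84.7% identity), the longest identical stretch was 23 bases, and 0 windows of 50 bases were shared. The main transcript of Rpl10 shared 96.3% of its 50-base windows with other annotated genes, most with the pseudogene Rpl10-ps3, and the sources used here do not give how the authors counted reads that match several places. The value of Rpl10 is uncertain for that reason, as are those of Rps12 (85.7%), Rpl15 (75.2%), Rpsa (53.7%) and Rps16 (41.6%), named next.

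Rps12, a protein of the head of the small subunit, was at 1685, 2773 and 3612 CPM in Sirt6-KO 1, 2 and 3, against 1346, 1506 and 1574 CPM in WT. All Sirt6-KO libraries were above all WT libraries, at a log2 fold change of 0.87 ± 0.23 (adjusted p = 0.00742, edgeR). Rpl15, a large subunit protein mutated in some patients with Diamond-Blackfan anaemia, was at 1518, 1952 and 2360 CPM in Sirt6-KO, against 1288, 1425 and 1464 CPM in WT. Its groups did not overlap either, but the gap between Sirt6-KO 1 and WT 3 was small (0.48 ± 0.16, adjusted p = 0.0240, edgeR; 0.0534 to 0.0974 without any one library other than Sirt6-KO 1). Rpsa, a small subunit protein at the mRNA exit site, also known as the laminin receptor, was at 2534, 3027 and 3672 CPM in Sirt6-KO, against 2097, 2363 and 2497 CPM in WT. The margin between the groups was smaller still (0.41 ± 0.15, adjusted p = 0.0432, edgeR; 0.0691 to 0.164 without any one library other than Sirt6-KO 1). Rps16, which reaches the P site with its tail, was at 632, 986 and 1237 CPM in Sirt6-KO, against 581, 630 and 683 CPM in WT. Sirt6-KO 1 lay within the WT range, although the gene passed the test (0.59 ± 0.20, adjusted p = 0.0275, edgeR).

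**Figure D2:**
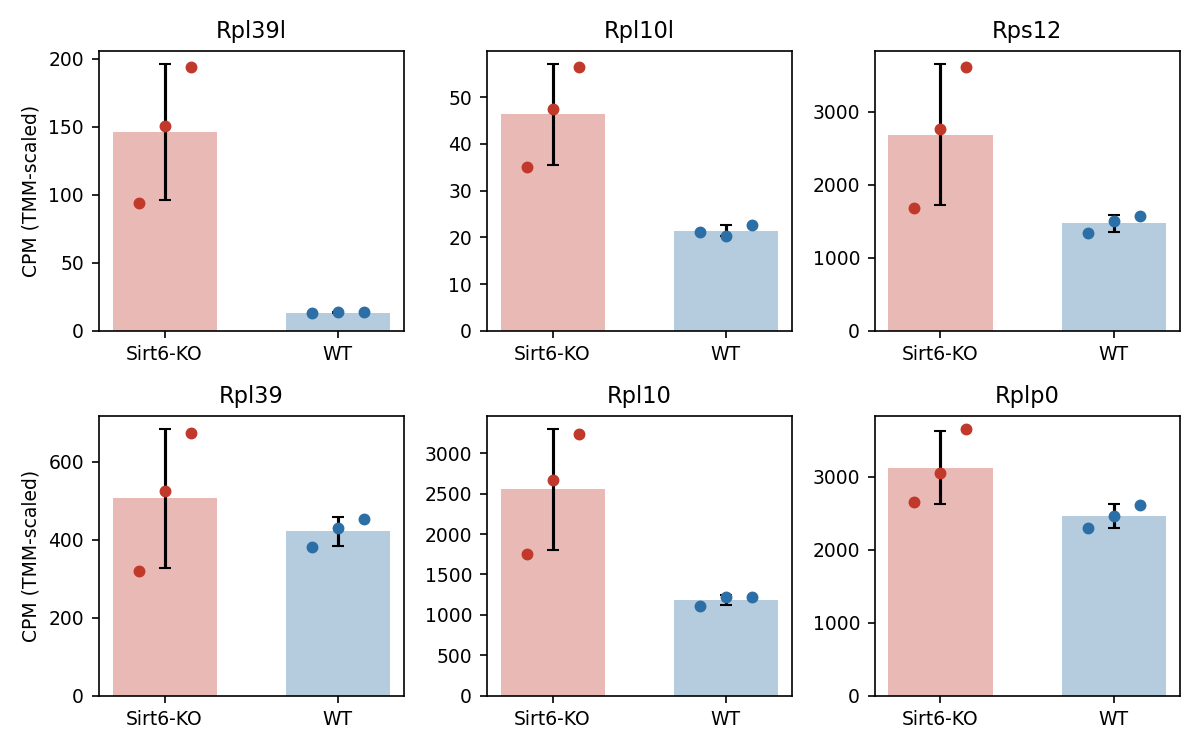
Bars are mean CPM (TMM-scaled), error bars are SD and points are the 3 libraries of each group, in replicate order from left to right, for the paralog Rpl39l above Rpl39, Rpl10l above Rpl10, and Rps12 above Rplp0. Rpl39l averages 146 CPM in Sirt6-KO and 13.3 CPM in WT, while the groups of Rpl39 overlap.

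Because the members shifted together in each library, they were also compared with the libraries scaled to the members themselves, a choice made after seeing the data that asks which proteins changed relative to the others. With this scaling 18.5% of all genes passed (9.05% as higher and 9.47% as lower), and 4 members were higher and 1 lower. Rpl39l was higher by 3.18 ± 0.25 (log2 ± SE, adjusted p = 0.000179, edgeR), Rpl10l by 0.88 (adjusted p = 0.0341), Rpl10 by 0.86 ± 0.14 (adjusted p = 0.00209) and Rps12 by 0.60 ± 0.13 (adjusted p = 0.0110). Rpl7, of the large subunit, changed by -0.41 ± 0.13 (adjusted p = 0.0490). A member's offset from its library's median was computed for the 73 members at 100 CPM or more, from values relative to the gene's WT mean. Averaged over the WT libraries, a member's offset is therefore near 0 by construction. That of Rpl10 was 0.88, 0.89 and 0.81 in Sirt6-KO 1, 2 and 3 (log2 units), against 0.03, 0.02 and -0.05 in WT 1, 2 and 3. That of Rps12 was 0.50, 0.63 and 0.65 in Sirt6-KO, against -0.0090, 0.01 and -0.0019 in WT. Rpl7 stood at -0.41, -0.38 and -0.43 in Sirt6-KO, against 0.03, -0.0093 and -0.02 in WT, although with TMM scaling its groups overlapped (-0.15 ± 0.20, adjusted p = 0.539, and 0.07 without Sirt6-KO 1). Some members that did not pass with this scaling also had offsets that were similar in the 3 Sirt6-KO libraries. Rpl31, of the large subunit, was at -0.32, -0.27 and -0.30 in Sirt6-KO 1, 2 and 3, against -0.0057, 0.02 and -0.01 in WT. Rps16 was at 0.31, 0.36 and 0.33 in Sirt6-KO, against 0.0029, -0.02 and 0.02 in WT. The offset of Rpl3, of the peptidyl transferase region, differed more between the Sirt6-KO libraries, at 0.36, 0.03 and -0.10 in Sirt6-KO 1, 2 and 3, against 0.04, -0.03 and -0.0098 in WT.

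**Figure D3:**
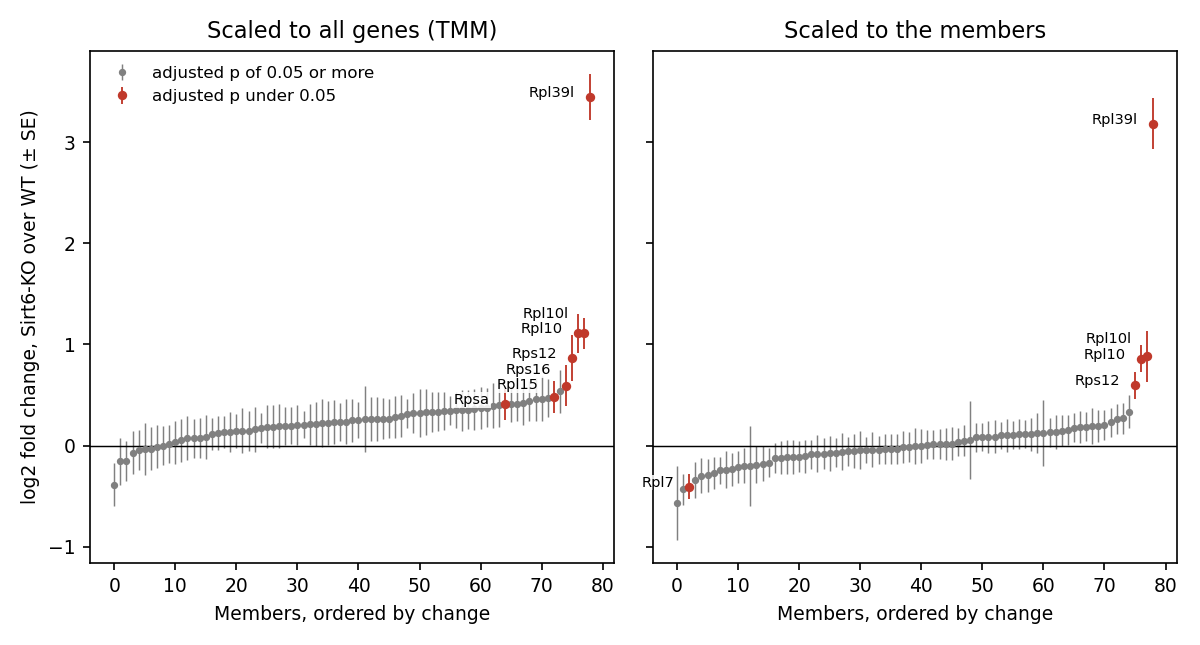
Log2 fold changes of Sirt6-KO over WT with their standard errors are plotted for the 79 members tested, in order of size, with libraries scaled to all genes (left) and to the members (right); red points passed an adjusted p of 0.05. On the left 7 members are higher and the median is 0.25. On the right 4 are higher, Rpl7 is lower and the median is -0.0049, which scaling to the members places near 0 by construction.

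The calls fell in both subunits. Of 48 large subunit genes tested, 4 were higher, with a median log2 fold change of 0.23. Of 31 small subunit genes, 3 were higher, with a median of 0.29. Both subunits had 0 lower, where 27.9% of all genes passed as higher and 27.8% as lower. Rpl5 and Rpl11, which carry the 5S ribosomal RNA and can bind the p53 inhibitor MDM2, did not pass. Rpl5 was at 1490, 2296 and 2624 CPM in Sirt6-KO, against 1588, 1640 and 1824 CPM in WT (0.34 ± 0.19, adjusted p = 0.14, edgeR). Rpl11 was at 763, 1165 and 1442 CPM in Sirt6-KO, against 858, 944 and 1001 CPM in WT (0.27 ± 0.19, adjusted p = 0.269, edgeR). In both, Sirt6-KO 1 was below every WT library and the other Sirt6-KO libraries above.

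The stalk proteins Rplp0, Rplp1 and Rplp2, which recruit elongation factors, did not pass either. Rplp0, the base of the stalk, was at 2658, 3056 and 3655 CPM in Sirt6-KO, against 2292, 2466 and 2620 CPM in WT. These groups did not overlap, but by a narrow margin (0.34 ± 0.14, adjusted p = 0.0631, edgeR). Rplp1 was at 1142, 1609 and 2092 CPM in Sirt6-KO, against 1118, 1264 and 1354 CPM in WT (0.37 ± 0.19, adjusted p = 0.120, edgeR). Rplp2 was at 356, 514 and 692 CPM in Sirt6-KO, against 437, 516 and 532 CPM in WT (0.07 ± 0.20, adjusted p = 0.775, edgeR; -0.20 without Sirt6-KO 3). Sirt6-KO 1 was below every WT library for Rplp2, within the WT range for Rplp1 and above it for Rplp0.

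The other groups of members also had few calls beside the 55.7% of all genes that passed. Of 8 tested proteins at the rim of the exit tunnel 0 passed, and their highest change was that of Rpl23a (0.54 ± 0.21, adjusted p = 0.0514, edgeR). At an unadjusted p under 0.05 this group had 1 higher, with DESeq2 1 and with limma-voom 0. At the mRNA entry site Rps2 and Rps3 did not pass (0.20 and 0.32). At the exit site 1 of 3 was higher, Rpsa. Of 14 tested genes mutated in Diamond-Blackfan anaemia, 1 was higher, Rpl15, with a median of 0.26 and a range of -0.07 for Rps29 to 0.48.

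The X chromosome holds 4 members, and 1 of them, Rpl10, was higher, with a median of 0.36 over the 4. Among 539 X-linked genes tested, 218 were higher and 107 lower, with a median of 0.20. Over all genes tested, 27.9% passed as higher and 27.8% as lower, with a median of 0.01. Rpl36a, which sits at the E site, was at 367, 615 and 798 CPM in Sirt6-KO, against 396, 437 and 457 CPM in WT (0.46 ± 0.22, adjusted p = 0.0963, edgeR). Rps4x, of the small subunit, was at 1390, 2091 and 2590 CPM in Sirt6-KO, against 1631, 1785 and 1854 CPM in WT (0.20 ± 0.19, adjusted p = 0.394, edgeR; -0.03 without Sirt6-KO 3). For both, Sirt6-KO 1 was below every WT library.

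Paralogs other than Rpl39l and Rpl10l did not pass. Rps27l, a p53-inducible paralog of Rps27, was at 175, 302 and 381 CPM in Sirt6-KO, against 197, 220 and 235 CPM in WT (0.39 ± 0.22, adjusted p = 0.152, edgeR). Rpl3l, the form of Rpl3 in heart and skeletal muscle, had 16 to 28 counts in each of the 6 libraries (0.26 ± 0.33, adjusted p = 0.519, edgeR; -0.13 without Sirt6-KO 3). Its share of the counts of Rpl3l and Rpl3 was 0.0332% in Sirt6-KO and 0.0341% in WT.

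Levels per length varied widely among members. Per kilobase of the gene's median transcript, Rps12 averaged 5467 CPM in Sirt6-KO and 2999 CPM in WT. Rpl13a averaged 3821 CPM per kilobase in Sirt6-KO and 2873 in WT, and Rplp0 averaged 3657 in Sirt6-KO and 2880 in WT; by this length these 3 were the highest. The ranking depended on the transcript chosen. With the longest transcript in place of the median one, Rps2 had the highest WT level, at 2967 CPM per kilobase in Sirt6-KO and 2574 in WT, and Rpl13a averaged 1807 in Sirt6-KO and 1358 in WT. At the other end, Rpl26, Rpl30 and Rpl34 of the large subunit and Rps27 of the small subunit were listed far below the other members that are not paralogs. Rpl26 had 0 counts in all 6 libraries, which allows at most 0.0945 to 0.150 CPM (3 counts, counting error only). Rpl30 had 18 to 28 counts, Rpl34 had 30 to 52 and Rps27 had 33 to 46 in each library. Of the 50-base windows of Rps27, 98.6% occur in other annotated genes, most in Rps27rt, against 71.3% for Rpl26, 76.4% for Rpl30, 37.9% for Rpl34 and a median of 59.9% for the 73 members at 100 CPM or more. The part of the counting rule in these low values was not tested, and they are uncertain.

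Ribosomal protein transcripts are short, and transcript length moved with the library shift. Members had a median length of 711 nucleotides and 51.8% GC, against 2118.5 nucleotides and 51.1% GC over all genes tested. Other genes of at most 500 nucleotides had medians of -0.16, 0.04 and 0.39 in Sirt6-KO 1, 2 and 3 (log2 CPM minus the WT mean, 227 genes at 5 CPM or more), and genes over 5000 nucleotides had -0.16, -0.30 and -0.56 (997 genes). In WT 1, 2 and 3 the medians of the shortest genes were -0.07, 0.03 and 0.05, and those of the longest 0.06, 0.0084 and -0.06. With each library's trend on length and GC content removed, the members' medians were -0.27, 0.18 and 0.43 in Sirt6-KO 1, 2 and 3 and -0.09, 0.01 and 0.07 in WT 1, 2 and 3, and 12 members passed, all of them higher, where 63.9% of all genes passed and 27.8% passed as higher.

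Within the members, the shift differed little between the shortest and the longest genes in Sirt6-KO 2 and 3. The shortest group of 24 (367 to 612 nucleotides) had medians of -0.40, 0.29 and 0.67 in Sirt6-KO 1, 2 and 3, and the longest group of 24 (860 to 3706 nucleotides) had -0.25, 0.28 and 0.65. Across the 73 genes, Spearman's rho of a member's offset from its library median with its WT level was 0.447 in Sirt6-KO 1, 0.108 in Sirt6-KO 2 and -0.0993 in Sirt6-KO 3. In WT 1, 2 and 3 it was 0.141, -0.363 and 0.132. With length, rho was 0.206, 0.079 and -0.14 in Sirt6-KO 1, 2 and 3, and 0.219, -0.299 and -0.0139 in WT 1, 2 and 3. These correlations are across genes that share their libraries and are a description only.

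**Figure D4:**
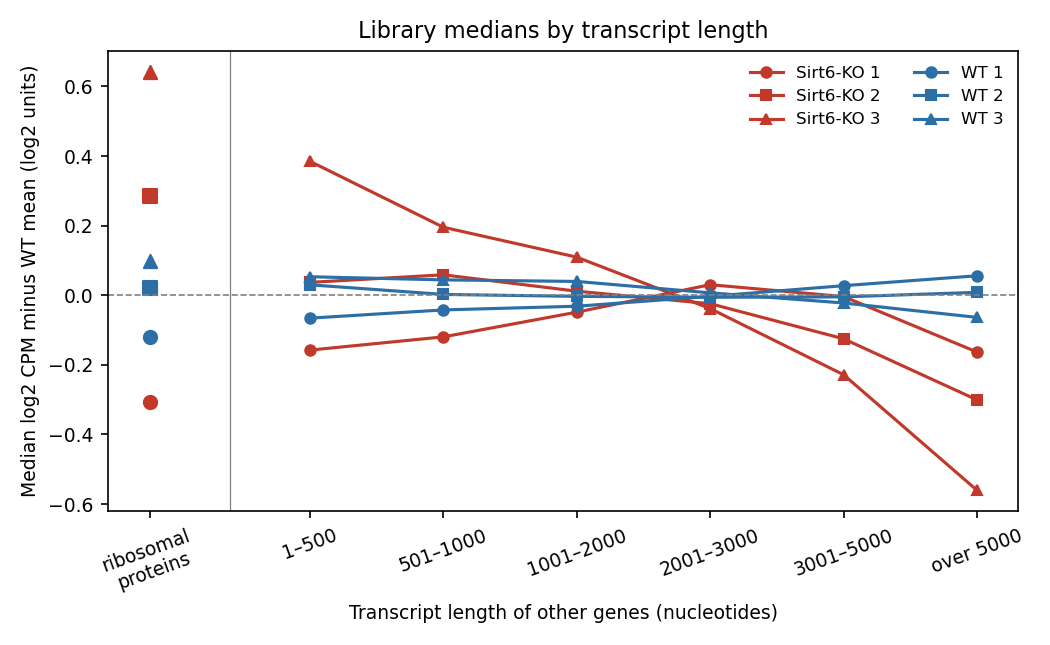
Medians of log2 CPM minus the WT mean are plotted per library for the 73 ribosomal protein genes (left) and for other genes in 6 bins of transcript length in nucleotides (right). In Sirt6-KO 3 the medians are 0.39 for genes of at most 500 nucleotides and -0.56 for genes over 5000 nucleotides, and the ribosomal proteins lie at 0.64.

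The proteins of the mitochondrial ribosome, which are encoded in the nucleus by a separate set of genes, showed the library order with a median shift that was larger in Sirt6-KO 1 and smaller in Sirt6-KO 2 and 3. The 75 genes had medians of -0.37, 0.0057 and 0.25 in Sirt6-KO 1, 2 and 3, against -0.09, 0.0061 and 0.08 in WT 1, 2 and 3, and 97.3% followed the order of the Sirt6-KO libraries. Of these 75, 8 were higher and 11 lower, with a median log2 fold change of -0.02, against 7 higher and 0 lower among the 79 cytosolic members; 27.9% of all genes passed as higher and 27.8% as lower, so both lists had fewer calls than the genes as a whole. This difference between the lists was not tested.

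The promoters of the members carried a pyrimidine run near the start more often than promoters in general. A TOP motif begins the mRNA, whereas the run counted here could lie anywhere within 50 bases on either side of the annotated start. The shares below therefore do not measure TOP motifs. In RefSeq start-site windows (GRCm38.p6), which matched 60 of the 80 members, an unbroken run of at least 8 C or T lay within 50 bases of the start on the transcribed strand in 85% of members, 35.3% of 68 mitochondrial ribosomal protein genes and 39.3% of 27025 genes. The median longest run was 10.5 bases in members, 6.5 in mitochondrial ribosomal protein genes and 7 in all genes. The 30 bases from 10 before the annotated start are shown for some of the members called as higher, with the longest run within these 30 bases in capitals. Rpsa, called as well but not shown, had at most 7 within 50 bases.
Rpl39l (chr16:10170218-10170247, plus strand): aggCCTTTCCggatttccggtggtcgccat
Rps12 (chr10:23787190-23787219, minus strand): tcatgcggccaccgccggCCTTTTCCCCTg
Rpl15 (chr14:18270967-18270996, minus strand): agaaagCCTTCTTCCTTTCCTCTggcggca
Rpl10 (chrX:74270806-74270835, plus strand): tacagtggaagataggccgCCTatataagg
Rpl10l (chr12:66284382-66284411, minus strand): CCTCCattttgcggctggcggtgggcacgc
Runs were 11 bases in Rps12, from 8 bases after the annotated start, and 17 in Rpl15, from 4 bases before it. In Rpl39l the shown run was 7, and the longest within 50 bases was 9, from 26 bases before the annotated start. In Rpl10 the window held 3, and a run of 10 lay further downstream, 40 bases from the start. Rpl10l, whose coding region has no intron, had at most 5 within 50 bases. In the 300-base windows, on both strands, CCGGAAG (the core bound by ETS factors such as GABPA) was in 41.7% of members, 36.8% of mitochondrial ribosomal protein genes and 9.93% of all genes. AAGATGGC (the core bound by YY1) was in 8.33% of members, 17.6% of mitochondrial ribosomal protein genes and 3.19% of all genes, and CACGTG (an E-box that MYC and MAX can bind) in 10.0% of members, 5.88% of mitochondrial ribosomal protein genes and 8.09% of all genes. TATAAA lay within 50 bases of the start in 6.67% of members, 0% of mitochondrial ribosomal protein genes and 5.77% of all genes. The reverse complement of CCGGAAG contains pyrimidines and can overlap a pyrimidine run.

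Among 7 transcription factors tied to ribosomal protein promoters, 1 was higher and 5 lower in Sirt6-KO, with a median log2 fold change of -0.46. Over all genes tested, 27.9% passed as higher and 27.8% as lower. Myc was at 12.2, 9.95 and 10.8 CPM in Sirt6-KO, against 40.8, 39.0 and 36.4 CPM in WT (-1.81 ± 0.11, adjusted p = 4.68e-07, edgeR). Mycn was at 171, 153 and 152 CPM in Sirt6-KO, against 86.7, 88.3 and 86.1 CPM in WT (0.87 ± 0.09, adjusted p = 1.98e-05, edgeR). The groups did not overlap for either gene, and Myc was lower where Mycn was higher. Yy1 and Gabpb1, a partner of GABPA, were lower (-0.49 ± 0.09 and -0.47 ± 0.10).

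Of 15 genes, those of the mTORC1 pathway together with Larp1, Larp4 and Cnbp, 1 was higher and 5 lower (median -0.24). For the lower genes this is close to the 27.8% of all genes called lower. Larp1 was at 189, 149 and 127 CPM in Sirt6-KO, against 325, 317 and 286 CPM in WT (-1.0 ± 0.14, adjusted p = 0.000136, edgeR). Rptor, the mTORC1 scaffold that selects substrates, was at 56.9, 43.6 and 37.7 CPM in Sirt6-KO, against 98.6, 97.4 and 87.5 CPM in WT (-1.03 ± 0.14, adjusted p = 0.000114, edgeR). Eif4ebp2, a translation repressor that mTORC1 inactivates, was lower by the test as well (-1.19 ± 0.13), and Ddit4, an inhibitor of mTORC1, was higher (2.02 ± 0.11). The groups did not overlap for Larp1 or Rptor, and both were lowest in Sirt6-KO 3, where the members were highest. Their transcripts are long (6615 and 3554 nucleotides), and the medians of genes of that length were also lowest in Sirt6-KO 3, at -0.56 over 5000 nucleotides and -0.23 between 3001 and 5000.

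Of 20 other TOP mRNAs, which encode elongation factors and further translation proteins, 1 was higher and 6 lower, with a median of -0.15; the 6 lower genes are likewise close to the 27.8% of all genes called lower. The poly(A)-binding protein gene Pabpc1 was at 286, 303 and 277 CPM in Sirt6-KO, against 880, 860 and 756 CPM in WT (-1.53 ± 0.11, adjusted p = 1.16e-06, edgeR). The importin gene Ipo5 (-1.95 ± 0.11), the elongation factor gene Eef1g (-0.95 ± 0.12) and Vim (-0.70 ± 0.10) were lower too. The 79 ribosomal proteins tested had 7 higher and 0 lower, and this difference between the lists was not tested.

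Of 11 chaperones and assembly factors dedicated to ribosomal proteins, 3 were higher and 3 lower (median -0.12), close to the shares over all genes of 27.9% higher and 27.8% lower. Ltv1, which acts in small subunit maturation, was higher (0.63 ± 0.13), and Rrs1, which brings in the 5S particle, was lower (-0.57 ± 0.09). Grwd1, the chaperone of Rpl3, and Heatr3, which imports Rpl5, were lower (-0.38 ± 0.10 and -0.31 ± 0.09); with total counts as scaling they were at -0.26 and -0.19 and did not pass, nor did Heatr3 without WT 1 (-0.29) or WT 3 (-0.31). Of 5 genes of p53 surveillance 2 were higher and 2 lower, beside the same shares over all genes, with Ccng1 at 0.85, Cdkn1a at 0.49, Mdm4 at -0.85 and Trp53 at -0.49. Of 6 genes of ribosomal protein and ribosome quality control, 1 was higher and 4 lower (median -0.55), where 27.8% of all genes were lower. The lower ones were the ubiquitin ligase genes Huwe1 (-0.99), Ltn1 (-0.77), Rnf10 (-0.65) and Zfp598 (-0.46), and Zfp598 did not pass with total counts (-0.33) or without Sirt6-KO 2 (-0.39).

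**Figure D5:**
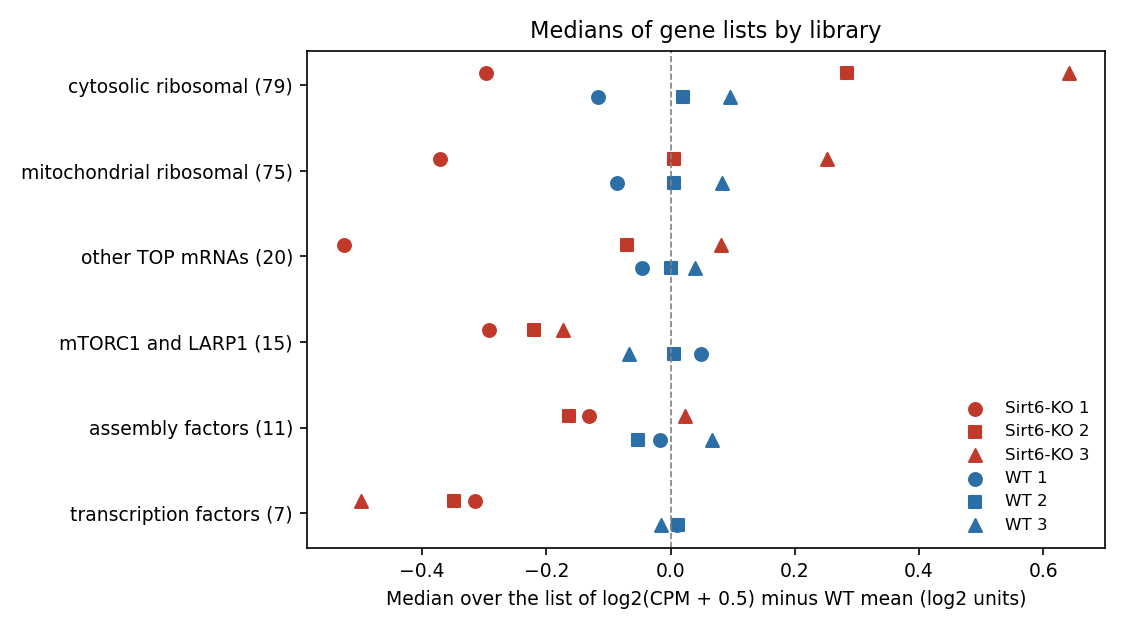
Each point is a library's median over a list of log2(CPM + 0.5) minus the gene's WT mean, with the number of genes tested in brackets, Sirt6-KO libraries above WT libraries within each list. The Sirt6-KO medians of the cytosolic ribosomal list span -0.30 to 0.64, and those of the 7 transcription factors span -0.50 to -0.32, all below the WT libraries. The list labelled mTORC1 and LARP1 also holds Larp4 and Cnbp.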

How the data were processed

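The authors deposited whole-number counts per gene symbol, with no normalization; columns were matched to samples by name. Per the submitters' processing notes, the build was mm9 and the tools were HTSeq 0.6.1, TopHat2 2.0.10 and DESeq2, with no role or order. The sources used here give no annotation, strand setting or treatment of reads with several matches. The authors' deposited table of Sirt6-KO against WT holds, per the file headers, a log2 fold change, its standard error and an adjusted p-value per gene. Members, lists and tests were chosen with earlier results of these data known.

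The test was that of edgeR 4.0.16 under R 4.3.3, applied to the deposited counts (filterByExpr, TMM, glmQLFTest, two-sided), over 14988 genes, with Benjamini-Hochberg adjustment and a threshold of 0.05; standard errors are the log2 fold change divided by the square root of F. The test was tried on simulated data first. Depth was 20107037 to 29267115 counts per library; a count of 0 allows 3 counts, or 0.0945 to 0.150 CPM. Every pair of libraries differed by more than sampling noise (lowest chi-square over its degrees of freedom 3.90). Named members were the largest changes among called genes without overlap and at 5 CPM or more, X-linked members, paralogs, the 5S particle, the stalk and the 3 highest and 3 lowest per length, and up to 4 called genes per other list; further genes, such as Rps16, Rpl7, Rpl37a, Rpl3, Rpl23a, Rpl34 and Rps27, were named after their values were seen. Length, GC content, chromosomes and transcripts came from GENCODE M21 (GRCm38) (21706 rows matched on their symbol, 1273 on an older one and 387 not at all); this is not the authors' build, so its coordinates belong only to the sequences shown. Promoter windows are from RefSeq. The window length, the motifs and the run length were chosen after seeing the data. Alternatives were other scalings, filters and tests (DESeq2 1.42.0, limma 3.58.1), length and GC removal (mgcv 1.9.3), a replicate block and each replicate left out.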

Additional observations from a re-analysis of the deposited data

How the results depend on the processing

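Rpl39l, Rpl10l, Rpl10 and Rps12 were called as higher under every alternative run. The count of members called moved with most settings, and the cause was not tested. Against 7 higher and 0 lower, it was 29 higher with total counts (54.8% of all genes passed). Total counts put the median of all genes at 0.13 in place of 0.01 and that of members at 0.36. The count of members was 12 with no filter on low counts (45.2% of all genes passed) and 15 with the DESeq2 Wald test (54.8%). It was 12 after trend removal (length and GC, 63.9%) and 4 with library sizes without the members (56.8%). At an adjusted p under 0.01 it was 4, and the share over all genes is not given here. Scaled to the members it was 4 higher and 1 lower (18.5% of all genes passed). Leaving out each replicate gave 4 to 66 higher and 0 to 1 lower (46.1% to 65.5% of all genes passed). Deviations of same-numbered libraries correlated at 0.479, -0.146 and 0.524 for replicates 1, 2 and 3 over 10456 genes. Sirt6-KO 1 with WT 3 gave -0.508 and Sirt6-KO 3 with WT 1 gave -0.550, while Sirt6-KO 2 correlated best with WT 3 (0.092). Whether the replicate numbers pair the samples is therefore not settled. With the replicate block 29 were higher (62.4% of all genes passed), and with the block and trend removal 19 higher and 2 lower (67.3%). With the block scaled to the members 4 were higher and 1 lower (33.3%). The members' median was 0.25 with the settings used above. It ran from -0.0068 (without Sirt6-KO 3, and with the block scaled to the members) to 0.48 (without Sirt6-KO 1). Each move was less than 1 SD of the Sirt6-KO libraries' medians. That SD was 0.48, larger than the median itself, so staying within it does not show that the median is stable.

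Some log2 changes turned sign. Rpl30 was at 0.091 with total counts and -0.16 to 0.16 over the replicates left out. Rplp2 was at -0.0083 after trend removal, -0.18 scaled to the members, -0.030 with the block and trend removal, -0.18 with the block scaled to the members and -0.20 to 0.29 over the replicates left out. Rpl39 was at -0.0049 scaled to the members, -0.0058 with the block as well, and -0.013 to 0.51 over the replicates left out. Rps4x was at -0.046 scaled to the members, -0.046 with the block as well, and -0.028 to 0.42 over the replicates left out. Over the replicates left out Rpl3l ran from -0.13 to 0.45, Rpl7 from -0.39 to 0.072 and Rpl37a from -0.49 to 0.10. Of the other values of named genes, 741 kept direction and side of the threshold, 37 gained a call and 59 lost one.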

Other observations

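Ribosomal protein genes outside the symbol rule were also measured. Fau, a fusion of a ubiquitin-like protein with a small subunit protein, was at 349, 542 and 733 CPM in Sirt6-KO 1, 2 and 3, against 455, 503 and 541 CPM in WT 1, 2 and 3 (log2 fold change 0.11 ± 0.21, adjusted p = 0.669, edgeR). Rps3a1, of the small subunit, was at 1451, 2317 and 2880 CPM in Sirt6-KO, against 1814, 1913 and 2048 CPM in WT. In both, Sirt6-KO 1 was below all WT libraries and Sirt6-KO 3 above. Gnb2l1, which encodes the scaffold RACK1 of the small subunit, was at 2178, 2562 and 3114 CPM in Sirt6-KO, against 1880, 2050 and 2179 CPM in WT (0.36 ± 0.15, adjusted p = 0.0590, edgeR). Rpl7l1, which despite its name acts in ribosome assembly, was at 276, 275 and 317 CPM in Sirt6-KO, against 287, 301 and 313 CPM in WT, so it did not follow the library order of the members, Sirt6-KO 1 and 2 being nearly equal. Of 7 such genes tested, 0 passed in edgeR, 1 was higher at an unadjusted p under 0.05, 1 was higher with DESeq2 and 0 passed with limma-voom, where 55.7% of all genes passed with edgeR.

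Among rows named as pseudogenes, Rps15a-ps4 passed as higher at 8.41, 11.3 and 11.9 CPM in Sirt6-KO, against 6.67, 8.20 and 8.73 CPM in WT (0.41 ± 0.16, adjusted p = 0.0481, edgeR), with Sirt6-KO 1 within the WT range. Rps15a-ps6 was at 37.5, 68.3 and 85.5 CPM in Sirt6-KO, against 44.7, 54.2 and 53 CPM in WT (0.33 ± 0.23, adjusted p = 0.252, edgeR). Rpl31-ps12 changed by -0.02 ± 0.17 (adjusted p = 0.916, edgeR). Rps19-ps3 was at 1.29, 1.15 and 1.25 CPM in Sirt6-KO, against 1.45, 1.80 and 1.66 CPM in WT. Its Sirt6-KO libraries were all below WT, but it did not pass (-0.41 ± 0.20, adjusted p = 0.114, edgeR). Among all genes tested, 27.9% passed as higher and 27.8% as lower, and 63.2% did not overlap. Reads of such rows cannot be told from those of the parent gene without the counting rule.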
